A study of Homo sapiens with 7 samples.

Results

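The NDUF genes encode the nuclear subunits and several assembly factors of mitochondrial complex I, and they were read here on 4 microarrays of human colon carcinoma cells treated with bafilomycin A1. A gene was counted when its name on the array started with NDUF followed by A, B, C, S, V or AF and its spots were not control spots. This gave 42 of 36337 gene names, measured by 51 probes: 6 core genes, 30 accessory genes, 4 assembly factors and 2 genes, NDUFA4 and NDUFA4L2, that carry an NDUF name but are set apart below. The cells were HCT116, a near-diploid line in the form that expresses histone H2B fused to GFP, and bafilomycin A1 blocks the vacuolar proton pump. All 4 cultures received 10 nM for 30 h, and 1 single-colour (Cy3) Agilent array was hybridised per culture from 100 ng of RNA. All of them lay on the same slide, so a slide effect could not be told apart. The series also has 3 untreated samples, which were not analysed here. Levels in treated cells and their spread between cultures could therefore be described, and no effect of the drug was computed. The line is a single derivative of 1 cell line, the labels give 10% serum where the methods give 5%, and the study describes the treated samples as biological replicates.

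Complex I is the entry point for electrons from NADH into the respiratory chain. It passes them over a flavin and a chain of iron-sulfur clusters to ubiquinone and couples this to the pumping of protons out of the mitochondrial matrix. The core subunits do the catalysis and are shared with bacteria, and part of them are encoded by mitochondrial DNA. Accessory subunits form a shell around the core, and assembly factors help to build the complex without staying in it.

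Signals are given as the log2 of the background-subtracted intensity minus the median of the array. That median was taken over probes with a signal above 0, so 0 is the middle of those probes. Values of 1 gene can be compared between arrays, whereas values of different probes also depend on the probe, so no order of transcript levels between genes was read from them. Detection of a gene required 1 probe or more with signal well above background on each of the 4 arrays. By this rule 41 of the 42 genes (97.6%) were detected, beside 54.2% of all gene names on the array. The share of spots well above background ran from 55.6% to 60.4% over the arrays, and no spot was saturated. The epithelial markers EPCAM, CDH1, KRT8, KRT18 and KRT19 were detected, 5 of 5. Of 5 markers of blood, vessel and connective tissue cells, PECAM1 and COL3A1 were not detected, and PTPRC (1 of its 5 probes), CD3E and COL1A1 were. PTPRC and CD3E lay below the array median on every array, with means of -2.07 and -0.34, and COL1A1 had a mean of 2.91.

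Replicate 3 gave the highest value for 39 of the 41 detected genes (95.1%), against 48.4% of all detected genes. Among these 39 genes the signal on replicate 3 was between 1.10-fold (NDUFS6) and 1.47-fold (NDUFA3) above the mean of the other arrays, with a median of 1.27-fold. The 2 exceptions were NDUFA10 and NDUFS7, in which replicate 3 was the lowest. The lowest value came from replicate 1 in 27 genes, from replicates 2 and 4 in 6 genes each and from replicate 3 in the 2 exceptions. The pattern depended on the scaling: after normexp background correction and quantile normalization, replicate 3 was the highest for 27 of 41 genes (65.9%), beside 36.6% of all detected genes.

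**Figure D1:**
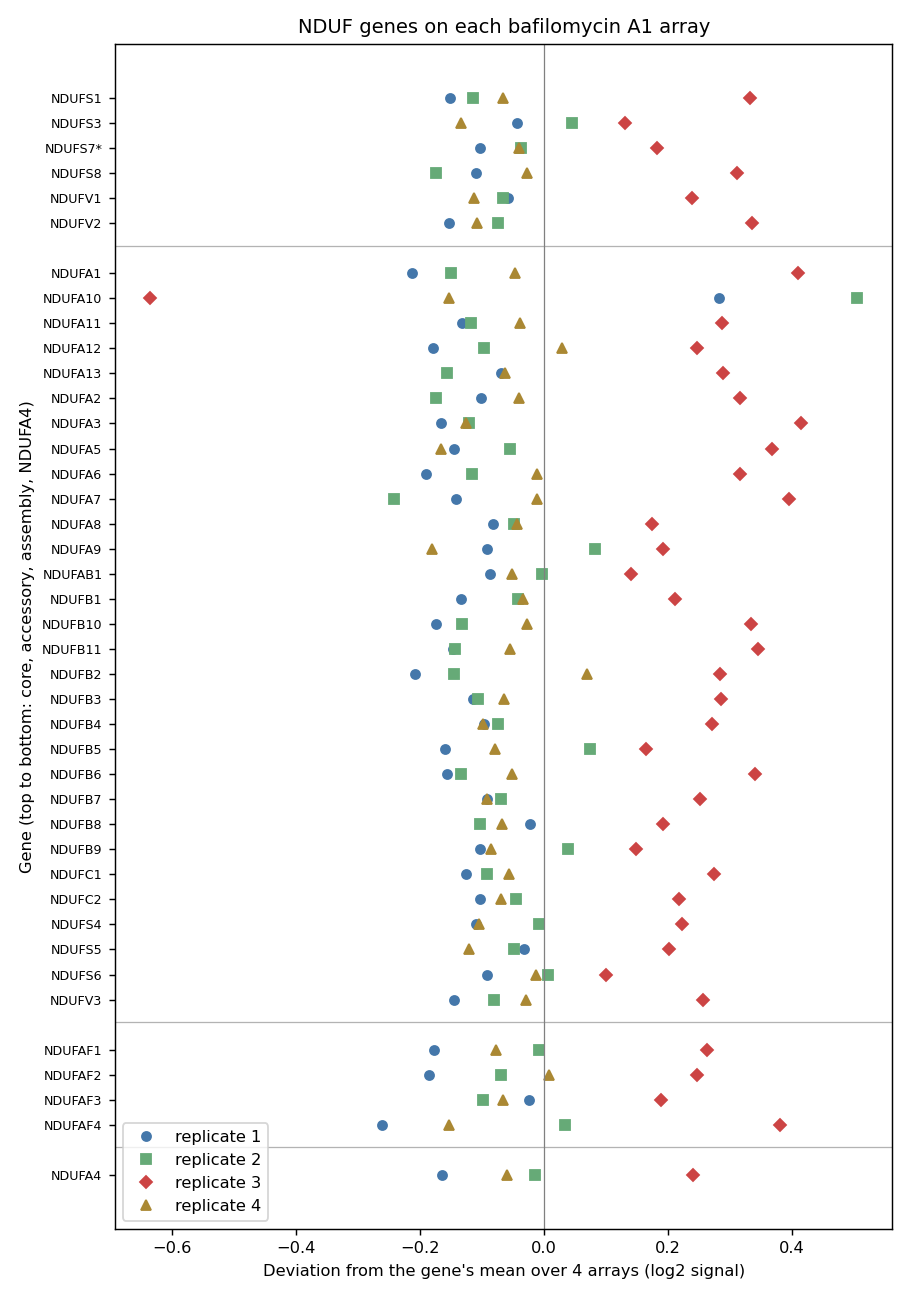
Deviation of each detected NDUF gene from its own mean over 4 arrays (x axis, log2 signal) with 1 row per gene (y axis), grouped from top to bottom into core, accessory and assembly genes and NDUFA4. Each symbol is 1 array, and NDUFS7 (asterisk) is drawn by its detected probe. Replicate 3 lies to the right in all rows except NDUFA10.

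The SD between arrays had a median of 0.19 over the 41 detected genes, and of 0.22 over the core, 0.19 over the accessory and 0.19 over the assembly genes. By detected probes only, the core median was 0.19, and with NDUFS7 left out it was 0.22. The median over all 19689 detected genes was 0.21. Without replicate 3 the median of the NDUF genes was 0.057, and that of all detected genes was 0.14. A span of more than 1.4-fold between the highest and lowest array was seen in 14 of the 41 genes (34.1%), beside 45.6% of all detected genes. These were 2 of 6 core, 11 of 30 accessory and 1 of 4 assembly genes. The count sits on a crowded edge, since 7 of the 14, NDUFV2, NDUFA2, NDUFB2, NDUFB11, NDUFB6, NDUFA6 and NDUFB10, lay within 2% above it and NDUFS1 and NDUFS8 within 2% below. Without replicate 3, the genes beyond 1.4-fold were NDUFA10 and NDUFS7, 2 in all.

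Most NDUF genes gave bright spots: 36 of the 41 fell into the brightest 20% of detected genes by mean signal, a ranking that mixes transcript level with probe behaviour. Within that 20%, 24.5% of genes spanned more than 1.4-fold and 72.2% were highest on replicate 3. The median SD of that 20% was 0.16, and 0.091 without replicate 3, beside 0.19 and 0.057 for the NDUF genes. The mean deviation of the 41 genes on replicate 3 was 0.19, and it was 0.24 when NDUFS7 was left out. The brightest 20% had 0.15 on that array and all detected genes 0.064. The base composition of the probes moved with the arrays too. Over the 49 detected NDUF probes, Spearman's rho between the GC share of the probe and the deviation on replicate 3 was -0.26, and over all 25661 detected probes it was -0.44. On replicate 1 these values were 0.27 and 0.44. Probes on 1 array share its RNA and labelling, and the part of base composition in the pattern of replicate 3 was not tested.

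Dixon's ratio, which sets the gap of an extreme array to its neighbour against the whole range, marked replicate 3 as apart in 7 of the 41 genes (17.1%), beside 7.94% of all detected genes for any array. The 7 were NDUFV1, NDUFV2, NDUFA3, NDUFA8, NDUFB3, NDUFB4 and NDUFB7. In each of them the other arrays lay within 1.06-fold of each other. The widest of these spans without replicate 3 was that of NDUFV2. In the brightest 20% of detected genes, 9.88% had an array apart. Among the other respiratory complexes, replicate 3 was apart in 5 of 9 complex III and 7 of 10 complex IV genes. It was apart in 0 of 4 complex II and 2 of 15 complex V genes.

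The core genes encode the subunits of the electron path. NDUFV1, which binds NADH and the flavin, was at 7.33, 7.32, 7.62 and 7.27 on replicates 1 to 4 (mean 7.39 ± 0.16, SD, n = 4). Its partner NDUFV2, an iron-sulfur protein, was at 7.85, 7.93, 8.34 and 7.89 (8.0 ± 0.23). Both were higher on replicate 3 than on any other array, by 1.25-fold and 1.36-fold over the mean of the others. NDUFS1, the largest iron-sulfur subunit, was at 6.78, 6.82, 7.26 and 6.86 (6.93 ± 0.22) and NDUFS8, which carries clusters close to ubiquinone, at 7.23, 7.17, 7.66 and 7.32 (7.35 ± 0.22). Both were again highest on replicate 3, by 1.36-fold and 1.33-fold over the mean of the others. NDUFS3 varied least in the core, at 6.51, 6.60, 6.69 and 6.42 (6.56 ± 0.11), a span of 1.20-fold.

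NDUFS7 carries the last iron-sulfur cluster before ubiquinone, and its 2 probes disagreed. A_23_P165090, designed on the RefSeq transcript and placed at chr19:1393247-1393306 (GRCh37, plus strand), was at 5.72, 5.79, 6.01 and 5.79 (5.83 ± 0.13) and was detected on every array. A_33_P3320808, designed on the Ensembl transcript ENST00000436115 at chr19:1389360-1389419, was detected on none. Its background-subtracted signals were 1.92, 3.80 and 0.739 on replicates 1 to 3, and -5.43 on replicate 4, which has no logarithm. The median over the probes with a value was therefore 0.20, 0.79 and -0.28 on replicates 1 to 3 and 5.79 on replicate 4, where the detected probe stood alone. The resulting SD of 2.81 was the largest among the NDUF genes and came from the changing number of probes. By its detected probe NDUFS7 spanned 1.22-fold and was highest on replicate 3. The mean deviations of the core list moved with it: -0.32, -0.20, -0.09 and 0.62 with both probes, and -0.10, -0.07, 0.26 and -0.08 with detected probes only.

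The genes with several probes show how far a value belongs to its probe. There were 8 of them, and the first 30 of the 60 bases of the probes of NDUFS7, NDUFA10 and NDUFC2 are shown because these probes gave the most unlike readings within 1 gene. Their letters come from the array files, written 5′ to 3′ in lower case, with none singled out.
NDUFS7 A_23_P165090: caacggaggaggctactaccactattccta
NDUFS7 A_33_P3320808: atgcatgtgtgcctgttggcatgcatgcac
NDUFA10 A_24_P316489: atagcagagaaactaggcttcaagcacttt
NDUFA10 A_33_P3351914: cattcaggttgtgcacattgtttttcttct
NDUFA10 A_33_P3416221: atgactctagctgatgttgggaccctttgc
NDUFC2 A_24_P364236: aaatcaaatgatttctgtctctattttctt
NDUFC2 A_33_P3336652: tcctctacatcggcttcttgggctactgct

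NDUFA10, an accessory subunit of the membrane arm next to the ubiquinone region, had 3 probes on the minus strand of chromosome 2. A_24_P316489 (chr2:240960786-240961604) was at 3.16, 3.39, 2.25 and 2.73 on replicates 1 to 4. A_33_P3351914 (chr2:240900158-240900217), assigned to the same RefSeq transcript, was at 6.75, 6.59, 6.96 and 6.49. The first was lowest and the second highest on replicate 3, whereas both were higher on replicates 1 and 2 than on replicate 4. A_33_P3416221 (chr2:240951226-240951285), designed on the Ensembl transcript ENST00000485344, was at 1.88, 1.88, 1.64 and 1.75, also lowest on replicate 3. As the middle of the 3, A_24_P316489 set the value of the gene (mean 2.88 ± 0.50, SD, n = 4), and NDUFA10 had the largest SD and the widest span, 2.20-fold, among the accessory genes.

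NDUFC2, a small membrane subunit, showed the opposite case. Its probes sit on the minus strand of chromosome 11, A_24_P364236 at chr11:77779435-77779494 and A_33_P3336652 at chr11:77790643-77790702. The former was at 2.26, 2.22, 2.68 and 2.25 and the latter at 7.59, 7.74, 7.82 and 7.67. These probes were designed on different RefSeq transcripts of the gene. Their signals differed greatly, and yet both were highest on replicate 3. In NDUFA12, NDUFAF2, NDUFB6 and NDUFB8 both probes were highest on replicate 3 as well, and in NDUFB5 the probe A_33_P3296682 was, whereas A_33_P3340164 was highest on replicate 2. The probes of NDUFB5, and those of NDUFB6, were also designed on different RefSeq transcripts. The part of the transcripts in differences between probes was not tested. Whether the probes lie in coding or untranslated sequence was not examined, since no annotation of GRCh37 was used here.

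**Figure D2:**
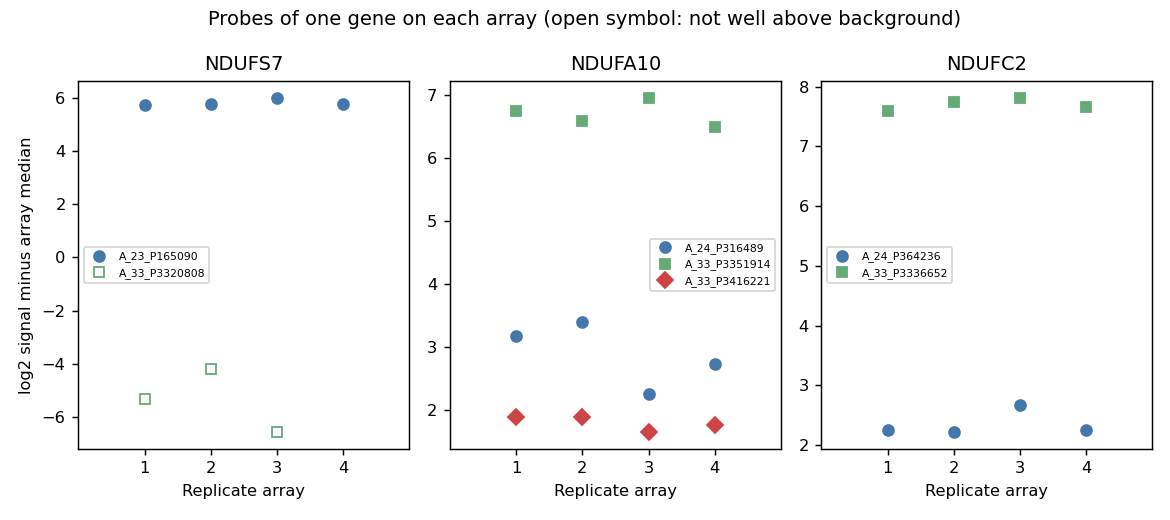
Signal of each probe of NDUFS7, NDUFA10 and NDUFC2 (y axis, log2 signal minus array median) on the 4 replicate arrays (x axis); each symbol is 1 probe, and open symbols were not well above background. The panels are to be read from array to array within a probe: the open probe of NDUFS7 has no point on replicate 4, and the NDUFA10 probe at 2.25 to 3.39 is lowest on replicate 3, where the probe at 6.49 to 6.96 is highest.

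All 30 accessory genes were detected, and 29 of them were highest on replicate 3. By name, 7 of 12 NDUFA genes and 4 of 11 NDUFB genes spanned more than 1.4-fold, and 0 of 2 NDUFC and 0 of the 4 accessory NDUFS and NDUFV genes did. After NDUFA10, the SD was largest in NDUFA1, NDUFA7, NDUFA3 and NDUFA5. NDUFA1, an X-linked subunit needed for the membrane arm, was at 7.64, 7.70, 8.26 and 7.81 (7.86 ± 0.28). NDUFA7 was at 7.50, 7.40, 8.03 and 7.63 (7.64 ± 0.28) and NDUFA3 at 7.06, 7.11, 7.64 and 7.10 (7.23 ± 0.28). For NDUFA5, a subunit of the arm that reaches into the matrix, the values were 5.73, 5.82, 6.24 and 5.71 (5.87 ± 0.25). In these 4 genes the arrays other than replicate 3 lay within 1.17-fold of each other.

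The accessory genes with the smallest SD were NDUFS6, NDUFAB1, NDUFA8, NDUFB9 and NDUFB8. NDUFS6, which sits at the NADH-oxidising end, was at 6.45, 6.55, 6.64 and 6.53 (6.55 ± 0.079). NDUFAB1, the mitochondrial acyl carrier protein that also serves fatty acid synthesis outside complex I, was at 7.67, 7.75, 7.90 and 7.71 (7.76 ± 0.10). NDUFA8, a subunit facing the intermembrane space, was at 8.27, 8.31, 8.53 and 8.31 (8.35 ± 0.12). The membrane-arm genes NDUFB9 and NDUFB8 had means of 10.3 ± 0.12 and 8.74 ± 0.13. Even in this least variable group replicate 3 was the highest array in every gene, and the spans ran from 1.14-fold (NDUFS6) to 1.23-fold (NDUFB8).

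In NDUFB3, NDUFB4 and NDUFB7, further membrane-arm genes, replicate 3 stood apart. NDUFB3 was at 6.72, 6.73, 7.12 and 6.77, NDUFB4 at 8.92, 8.95, 9.29 and 8.92 and NDUFB7 at 6.18, 6.20, 6.52 and 6.18. The 3 lower arrays of each differed by at most 1.04-fold, and replicate 3 was 1.26-fold to 1.30-fold above their mean.

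NDUFS5 and NDUFS6 were each printed as 10 spots of 1 probe, which gives the spread of spots within an array. For NDUFS6 the SD of the log2 signals over the spots of an array was between 0.18 and 0.21. If the spots were independent, their mean would have a standard error of 0.056 to 0.067. The SD of NDUFS6 between the 4 arrays was 0.079. For NDUFS5 the SD over spots was between 0.059 and 0.19, with 8 of the 10 spots used on replicate 4. The standard error for independent spots was 0.021 to 0.059, and the SD between arrays was 0.14. The other NDUF probes were printed once, so each of their values rests on 1 spot per array. The median SD of the detected NDUF genes without replicate 3, 0.057, was below these SDs over spots. The SDs over spots were therefore not taken as the error of a single spot between arrays. How far the spread over spots recurs from array to array was not tested.

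The assembly factors NDUFAF1 to NDUFAF4 were all detected and all highest on replicate 3. NDUFAF1, which acts in the assembly of the membrane arm, was at 4.29, 4.46, 4.73 and 4.39 (4.47 ± 0.19). NDUFAF2, a chaperone of a late assembly stage, was at 4.97, 5.09, 5.41 and 5.17 (5.16 ± 0.18). Replicate 1 was the lowest array in both. NDUFAF3 and NDUFAF4 work together early in the assembly of the ubiquinone-binding part. NDUFAF3 was at 8.45, 8.38, 8.66 and 8.41 (8.47 ± 0.13), and NDUFAF4 was at 4.21, 4.51, 4.85 and 4.32 (4.47 ± 0.28). The span of NDUFAF4, 1.56-fold, was the widest of the 4 and was 1.23-fold without replicate 3.

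NDUFA4 and NDUFA4L2 carry NDUF names from an earlier assignment, and the current RefSeq names of their transcripts, COXFA4 and COXFA4L2, place them with cytochrome c oxidase. NDUFA4 was at 8.80, 8.95, 9.21 and 8.90 (8.97 ± 0.17), again highest on replicate 3. NDUFA4L2, a paralogue known as a hypoxia-induced gene, was the only NDUF gene not well above background on any array. Its background-subtracted signals were 14.8, 9.73, 19.2 and 3.55, so no order between arrays was read from them.

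The other genes of the pathway are the mitochondrially encoded core subunits and the assembly factors without an NDUF name on the array. The mitochondrial genes ND1 to ND6 and ND4L were detected, 7 of 7, and had a larger spread than the nuclear genes, with a median SD of 0.40 and 7 of 7 beyond 1.4-fold. ND5 was at 6.50, 6.06, 7.03 and 6.11, and 6 of the 7 were highest on replicate 3. The exception was ND6, the only one of these genes on the other strand of mitochondrial DNA, at 3.12, 3.15, 2.34 and 2.58 and lowest on replicate 3. Among the 6 genes highest on replicate 3, ND2 was at 8.07, 7.72, 8.74 and 7.96. In these 6 genes replicate 1 was the second highest array, whereas it was the lowest array in 27 of the 41 NDUF genes.

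Of 12 assembly factors without an NDUF name, 11 were found by name and all 11 were detected, with a median SD of 0.13. Among them were NDUFAF5 to NDUFAF8 under their older names C20orf7, C8orf38, C2orf56 and C17orf89, with SDs of 0.20, 0.13, 0.12 and 0.11. FOXRED1, a flavoprotein, was at 1.39, 1.53, 0.27 and 0.96 and was lowest on replicate 3, as NDUFA10 was. NUBPL, which delivers iron-sulfur clusters to complex I, was at -0.75 on replicate 2 against 4.06 to 4.50 on the others, and only 1 of its 2 probes was detected on all arrays. Its SD with both probes was 2.5. With detected probes only, no gene of this list had an SD above 0.57.

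Lists of the other respiratory complexes differed in their behaviour on replicate 3. It was highest for 1 of 4 complex II genes, 7 of 9 complex III genes, 9 of 10 complex IV genes and 10 of 15 complex V genes. By detected probes, the mean deviation on this array was 0.026 for complex II, 0.16 for complex III, 0.26 for complex IV and 0.16 for complex V, beside 0.26 for the core, 0.23 for the accessory and 0.27 for the assembly genes of complex I. The median SDs of complexes II to V were 0.16, 0.12, 0.19 and 0.19. With all probes and without replicate 3 they were 0.18, 0.028, 0.038 and 0.065, beside 0.057 for the NDUF genes. In complex V the genes ATP5A1, ATP5B and ATP5C1 were lower on replicates 3 and 4 than on 1 and 2, whereas ATP5D was highest on replicate 3. ATP5B, for example, was at 7.84, 8.12, 7.61 and 7.60. The lists were described by counts, and no test set them against each other.

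**Figure D3:**
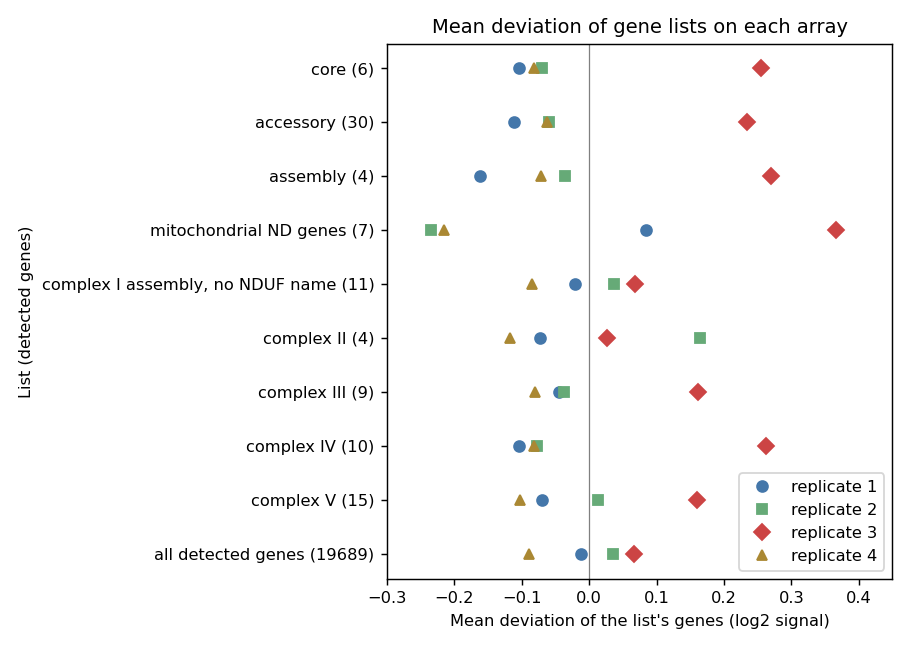
Mean deviation of the detected genes of each list from their own means (x axis, log2 signal) on the 4 arrays, with 1 row per list and its number of genes (y axis), from detected probes only. Replicate 3 is furthest to the right in every list except complex II, where replicate 2 is. On replicate 3 the core is at 0.26, the accessory list at 0.23 and the assembly list at 0.27. The mitochondrial ND genes are at 0.37 there and all detected genes at 0.066.

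The promoters of these genes were read as a property that the array values did not use. The 42 genes lie on 20 chromosomes, with 6 of them on chromosome 19. The factors NRF1, GABPA (an ETS protein) and YY1 are known regulators of nuclear genes for respiration. RefSeq promoter windows (GRCh38.p14), from 250 bases before to 50 bases after a start, were at hand for 38 of the 42 genes, and NDUFB5, NDUFB9, NDUFC2 and NDUFS5 were without one. A gene counted when any of its windows held the letters on either strand. The NRF1 letters GCGCNTGCG were found in 11 of 38 genes (28.9%), beside 12.5% of 15843 protein-coding genes and 9.01% of all 27305 genes in the table. The YY1 letters AAGATGGC were found in 7 of 38 (18.4%), beside 4.66% and 3.52%. All 7 matches lay on the strand of the gene, starting 11 to 26 bases after the start site. Of protein-coding genes, 2.5% held these letters on their own strand anywhere in the 50 bases after a start. The letters contain ATG, and whether the matches overlap the start codons of translation was not examined.

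The remaining motifs were not more frequent than in other protein-coding genes. The ETS letters CCGGAAG were in 6 of 38 genes (15.8%, beside 16.5%), the SP1 letters GGGCGG in 24 (63.2%, beside 64.3%), CCAAT in 10 (26.3%, beside 42.1%) and TATAAA in 3 (7.89%, beside 12.4%). By role, NRF1 letters were in 1 of 6 core, 10 of 26 accessory and 0 of 4 assembly genes, and YY1 letters in 1, 6 and 0 of these. A match of letters is a description and not a bound site. With a window of 100 bases before to 50 after the start, NRF1 letters were in 8 of 38 genes (21.1%, beside 9.07% of protein-coding genes) and YY1 letters in 7 (18.4%, beside 3.62%).

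**Figure D4:**
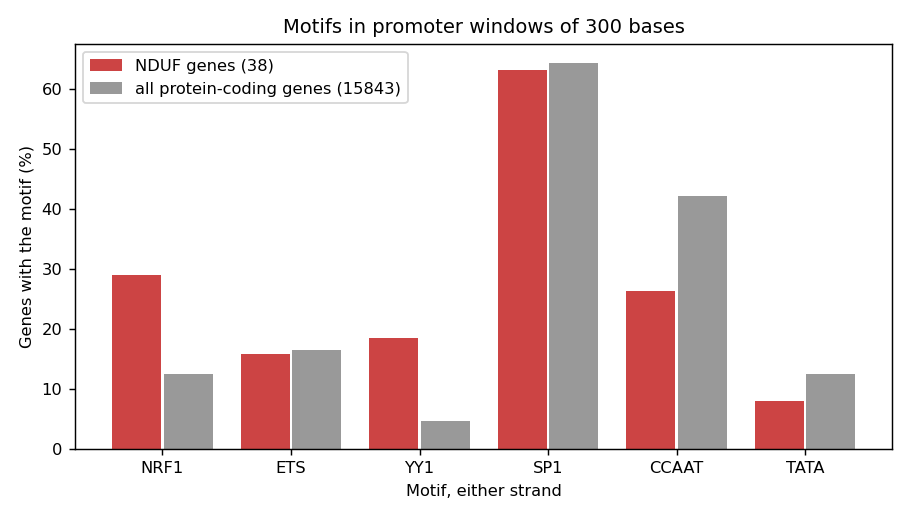
Share of genes whose promoter window of 300 bases holds each motif on either strand (y axis, percent), for 38 NDUF genes (red bars) and 15843 protein-coding genes (grey bars). The red bar is higher for NRF1 (28.9% against 12.5%) and YY1 (18.4% against 4.66%) and lower for CCAAT and TATA.

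NDUFA3, NDUFA6, NDUFA9 and NDUFS7 were the 4 genes with both NRF1 and YY1 letters. Their windows from 90 bases before to 35 bases after the start site are shown on the strand of the gene, because they show where both motifs lie. Capitals mark first the NRF1 and then the YY1 letters. The windows are chr19:54102765-54102889 (plus strand), chr22:42090738-42090862 (minus), chr12:4649024-4649148 (plus) and chr19:1383817-1383941 (plus) of GRCh38.p14.
NDUFA3: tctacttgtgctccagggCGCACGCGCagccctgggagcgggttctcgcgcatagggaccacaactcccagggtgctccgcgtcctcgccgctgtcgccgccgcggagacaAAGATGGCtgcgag
NDUFA6: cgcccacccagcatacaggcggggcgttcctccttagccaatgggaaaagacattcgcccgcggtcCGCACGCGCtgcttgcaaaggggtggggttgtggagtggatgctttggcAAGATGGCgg
NDUFA9: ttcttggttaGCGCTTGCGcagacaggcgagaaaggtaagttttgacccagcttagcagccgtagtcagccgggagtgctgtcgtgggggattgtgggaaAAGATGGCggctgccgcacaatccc
NDUFS7: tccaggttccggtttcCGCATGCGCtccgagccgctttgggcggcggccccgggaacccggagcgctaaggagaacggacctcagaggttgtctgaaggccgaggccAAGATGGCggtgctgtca
In the arrays these genes had no common spread. NDUFA3 spanned 1.50-fold, NDUFA6 1.42-fold, NDUFA9 1.29-fold and NDUFS7, by its detected probe, 1.22-fold.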

How the data were processed

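RNA of 4 bafilomycin A1 cultures was measured on 1 single-colour array each. The authors deposited scanner files from Agilent Feature Extraction 10.7.3.1, per the submitters' processing notes, which hold linear intensity signals with the background taken off and no normalization between arrays, and flags per spot. Probe coordinates in the deposited files are of GRCh37. The comparison of 3 untreated samples was left out because their values were not analysed here, so no test was made.

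As in the study's methods, log2 of the background-subtracted signal was taken and centred on the array median, and a gene's value is the median of its probes. The array median was 5.99 to 6.27 on the log2 scale, over those of the 50599 non-control probes that had a signal above 0. Control spots and spots marked as feature outliers (275 to 410 of 58717 per array) were left out, spots of a probe were averaged, and signals at or below 0 were left out on that array. Flags for outlying local background were not applied in the main setting, because the background that the software subtracted was its fitted surface (equal within 0.1% in 100% of spots). Detection of a probe on an array meant that over 50% of the spots used were flagged as well above background. Errors are SDs over 4 arrays, and the number of arrays limits their precision. A deviation is a value minus the mean of its gene over the arrays.

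The members, roles and gene lists were chosen with earlier results of these data known. Core genes were NDUFV1, NDUFV2, NDUFS1, NDUFS3, NDUFS7 and NDUFS8, assembly genes those named NDUFAF, and the rest accessory, apart from NDUFA4 and NDUFA4L2. A further gene that met the rule on names is not reported here and is left out of the counts of NDUF genes. Named genes were all core and assembly genes, genes not detected or with 1 array apart, the 5 accessory genes with the largest and the 5 with the smallest SD, NDUFAB1, NDUFA4 and NDUFA4L2, and genes whose probes differed in detection or number of values. NDUFC2, NDUFS5, NDUFA6 and NDUFA9 and the genes of other complexes given as examples were named after their values were seen. The transcripts of 49 of 51 probes were matched to RefSeq names. SDs and Dixon's ratio were tested on simulated data. Alternatives were the processed signal centred on its 75th percentile, normexp (offset 50) with quantile normalization in limma 3.58.1, stricter choices of probes, outlying spots kept, centring with signals at or below 0 ranked lowest, the mean over probes, no detection filter, other detection rules and leaving out each array. Chosen after seeing the data were the removal of background outliers and the counts of genes highest on replicate 3 under each alternative. R 4.3.3 ran limma, and the rest ran in Python 3.11.15 (scipy 1.17.1, pandas 2.3.3, numpy 2.4.6; figures with matplotlib 3.10.9).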

Additional observations from a re-analysis of the deposited data

Results flagged for a closer look

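In 7 named genes and 1 list mean, replicate 3 lay apart from the other arrays by Dixon's ratio, the gap to the nearest array over the whole range. The ratio was 0.922 for NDUFA3, 0.851 for NDUFA8, 0.873 for NDUFB3, 0.934 for NDUFB4, 0.934 for NDUFB7, 0.843 for NDUFV1 and 0.836 for NDUFV2. It was 0.851 for the mean of the accessory genes. Chance marks about 1 in 20 values, and values of 1 array share its RNA, labelling and centring. Genes were named partly because an array lay apart, so the count to read is 7 of all 41 detected NDUF genes. Beside it stand 7.94% of all detected genes and 9.88% of the brightest 20% of them. Under normexp and quantile normalization 2 of the 41 genes (4.88%) had an array apart, near the 6.15% of all detected genes.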

How the results depend on the processing

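The number of detected genes was 41 and stayed at 40 or 41 under the other detection and outlier rules; NDUFB9, read by 1 spot, was the gene lost when background outliers were also left out. The spread depended on the scaling. Normexp with quantile normalization lowered the median SD to 0.089 over the 41 detected NDUF genes, 0.082 over the core, 0.091 over the accessory and 0.093 over the assembly genes, and the genes spanning more than 1.4-fold to 1 in all, 0 in the core, 1 accessory and 0 assembly; over all detected genes the median SD was then 0.11 and 2765 of 19689 spanned more than 1.4-fold. Centring with signals at or below 0 ranked lowest raised these counts to 25, 4, 17 and 3. The processed signal gave 6 genes in all, 0 core and 5 accessory. With only the probes detected, or only those with a value, on all 4 arrays, the core count was 1, because NDUFS7 then rested on 1 probe. With background outliers left out, 2 assembly genes passed 1.4-fold. The causes of the other shifts were not tested. Leaving out each array in turn gave 41 detected genes each time, and median SDs from 0.057 to 0.22 over all NDUF genes, 0.058 to 0.26 over the core, 0.055 to 0.22 over the accessory and 0.091 to 0.22 over the assembly genes, the lowest each time without replicate 3. The counts beyond 1.4-fold ranged from 2 to 14, 1 to 2, 1 to 11 and 0 to 1, and without replicate 1 they were 9 in all, 1 in the core and 7 accessory. No paired analysis was made, because the untreated samples were not analysed here. They share replicate numbers with treated samples, which does not by itself mark matched cultures. Replicate 3 was the highest array in 38 to 40 genes under the alternatives that kept it, apart from quantile normalization.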
